A study of Mus musculus with 38 samples.

Results

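L1MdTf is a young group of mouse LINE-1 retrotransposons, named after the Tf type of repeated monomer in its 5′ promoter, and the copies analysed here are all those whose family name in the transposable element (TE) tables starts with L1MdTf_. There were 10972 such copies among 3793386 TE copies in 1225 families: 2612 of L1MdTf_I, 3794 of L1MdTf_II and 4566 of L1MdTf_III. The study asked how chromatin contacts with the nuclear periphery depend on the lamins and on the lamin B receptor (LBR). CUT&RUN releases the DNA around an antibody by means of a bound nuclease, and it was used to map LAP2B in naive mouse embryonic stem cells (naive mESCs, grown in 2i + LIF) and in epiblast-like cells (EpiLCs, collected after 48 h with FGF and Activin A). LAP2B libraries came from wildtype cells (WT), from cells without LBR (LBRKO), from cells without the lamins (TKO) and from cells without the lamins and LBR (QKO), with 3 libraries per genotype and stage. LMNB1 and a control antibody (IGG) were mapped in WT cells of both stages, with 3 libraries each. No agent other than the culture factors distinguished the groups, and the stage was the same for all genotypes compared.

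Several limits of these cells as models come from the study's methods. The WT and TKO lines were separate lines from littermates, and karyotyping found all TKO cells and part of the WT cells abnormal. LBRKO was made from the WT line and QKO from the TKO line by genome editing, and QKO was a single clone. TKO and QKO therefore differed from WT by line as well as by genotype, and the share of line and genotype in a difference cannot be told apart. The antibody called LAP2B here was raised against a stretch that is partly common to the membrane-bound and the nucleoplasmic products of the Tmpo gene and partly found in the membrane-bound one alone, and the study describes it as recognising mainly the membrane-bound form. In WT EpiLCs the study found LAP2B signal outside lamina-associated domains as well as in them and did not use it there to map these domains, so that LAP2B values in EpiLCs, and their differences from naive cells, are levels of LAP2B signal and not of contact with the lamina. The study also found survival under EpiLC conditions moderately lower in LBRKO and TKO and severely impaired in QKO. Mutant EpiLC values therefore describe the cells that survived, and the part of this in stage differences was not tested. Replicates are separate samples of cells that are not stated to be separate cultures, so that p-values measure only the spread between these samples.

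LINE-1 elements copy themselves through RNA. A full-length element carries a 5′ promoter and encodes ORF1p, an RNA-binding protein, and ORF2p, an endonuclease and reverse transcriptase, but most copies are truncated at the 5′ end. The Tf, Gf and A groups are the young LINE-1 groups of the mouse and still hold mobile members. LINE-1-rich DNA is typical of lamina-associated domains, the gene-poor stretches that lie against the inner nuclear membrane. LAP2B and LBR are proteins of that membrane, and the lamins, LMNB1 among them, form the meshwork beneath it.

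A deposited value is read here as the signal summed over the bins that a copy touches, scaled by yeast spike-in DNA. Bins are taken to be 1 kb wide, and longer copies have higher values. Values of copies shorter than a bin can hold signal of neighbouring DNA, and the part of this was not tested. The deposited values as they stand are called the spike-in scale. The relative scale divides each library by the mean signal of its median TE family, and so takes out differences in total yield. Reads recovered from the values came to 315947 to 833594 over the L1MdTf copies of a LAP2B library, with a median of 18 to 48 reads per copy, and 0.0456% to 1.18% of the copies were at 0. The alignment methods name no cut-off on mapping quality, whereas the study describes its LAP2B values on single L1MdA_I copies as coming from uniquely mapped reads. Whether the deposited values hold reads that fit several near-identical copies is not stated, so that sums over copies are firmer than values of single copies.

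In WT cells the L1MdTf copies had more LAP2B than most TE copies, and most of that excess was also seen with IGG. In naive WT the mean relative level over all L1MdTf copies was 3.49, 3.31 and 3.66 times the median family in the 3 libraries, the 6th highest among 1202 families with at least 10 copies in each library. LMNB1, in the same cells, gave 3.24, 3.62 and 3.07. IGG, which carries the same dependence on copy length, gave 3.28, 3.03 and 3.13. Divided by the mean IGG level of the same stage, naive WT LAP2B stood at 1.11 ± 0.0544 (SD, n = 3) and LMNB1 at 1.05 ± 0.0893. By this ratio the L1MdTf copies ranked 119th to 410th of 1202 families in the naive WT LAP2B libraries, whereas single naive IGG libraries set against their own mean ranked 163rd to 1068th.

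The excess over IGG was also counted copy by copy, a measure added after the values were seen. In the naive WT LAP2B libraries, 72.9%, 69.3% and 73.1% of the L1MdTf copies had a LAP2B to IGG ratio above that of the median TE copy. For LMNB1 the shares were 72.6%, 77.0% and 63.2%. L1MdGf and L1MdA, the other young groups, had 68.9% ± 1.23 and 69.5% ± 0.905 for LAP2B (SD, n = 3). Each copy has, in the deposited tables, a modified z score of naive WT LAP2B, and this score was above 2 for 5272 L1MdTf copies (48.0%), for 35.8% of L1MdGf, 32.0% of L1MdA and 6.39% of all TE copies. This score is not corrected for length or for IGG.

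**Figure D1:**
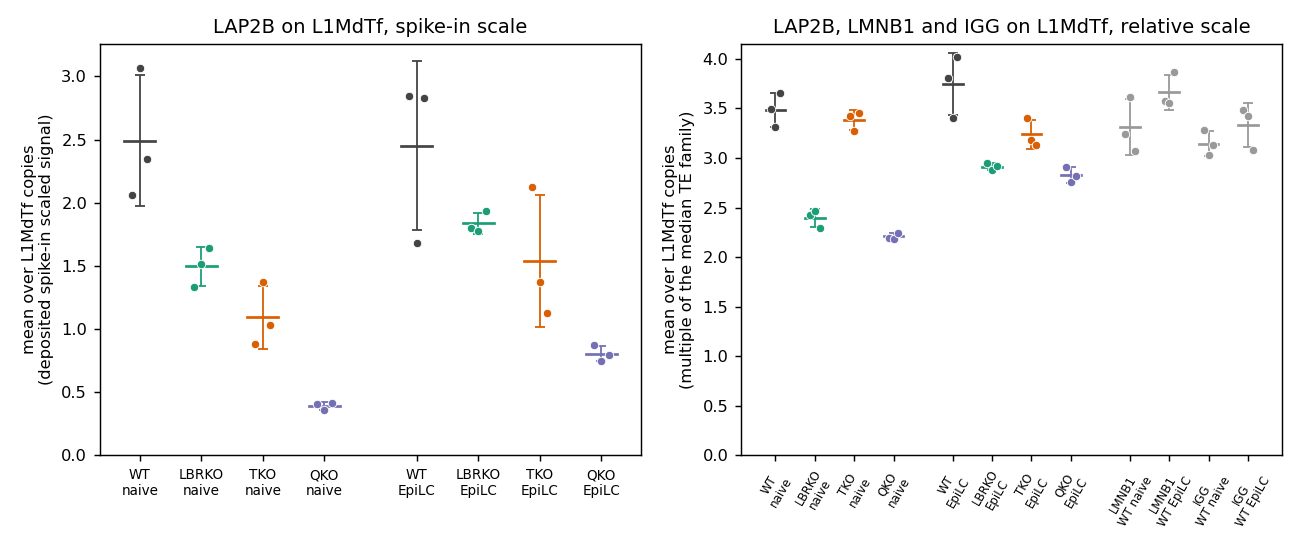
Mean LAP2B, LMNB1 and IGG signal over the 10972 L1MdTf copies, as deposited (left, spike-in scale, LAP2B only) and as a multiple of the median TE family (right, relative scale). Points are libraries, horizontal lines group means and bars the SD of 3 libraries. On the right, the LBRKO and QKO libraries lie below every WT library and every IGG library of their stage.

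On the relative scale LAP2B on L1MdTf in naive cells was lower in both mutants without LBR and overlapped WT in TKO. By the share of reads and the spike-in scale, given below, TKO was lower than WT as well. In naive LBRKO the relative level was 2.42, 2.47 and 2.29, and in naive QKO it was 2.20, 2.19 and 2.25, all below the lowest WT library and below all 3 IGG libraries. In naive TKO it was 3.42, 3.27 and 3.46, which overlapped WT. Against WT the pooled L1MdTf level fell by 0.52 ± 0.0483 on the log2 scale (SE) in LBRKO (limma, Benjamini-Hochberg adjusted p = 1.49e-08) and by 0.63 ± 0.0483 in QKO (limma adjusted p = 5.34e-10). In TKO the difference was -0.04 ± 0.0483 (limma adjusted p = 0.497). QKO against TKO, both without lamins, was added after the values were seen and gave -0.59 ± 0.0483 (limma adjusted p = 3.55e-09; 38.3% of families called lower). LBRKO against TKO, also added, gave -0.48 ± 0.0483 (limma adjusted p = 6.25e-08; 37.7% of families called lower). The TKO value depends on the yardstick, because dividing by the median gene instead of the median TE family gave -0.55 (adjusted p = 4.92e-09), and dividing by the mean over all TE copies gave -0.16 (adjusted p = 0.00478). With the median gene as yardstick the median TE family itself shifted by -0.36, -0.46 and -0.70 in naive LBRKO, TKO and QKO, and L1MdTf was further below WT than this median in all 3 mutants.

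The same order holds in the plain share of recovered reads, each counted once per copy whose bins it touches. L1MdTf copies held 0.982%, 0.943% and 1.01% of the reads over TE copies in naive WT, and 0.655%, 0.663% and 0.613% in naive LBRKO. In naive QKO they held 0.498%, 0.525% and 0.520%, less than the 0.859%, 0.797% and 0.818% seen with IGG in naive WT. Naive TKO, with 0.880%, 0.849% and 0.892%, lay below WT and overlapped IGG.

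By the spike-in scale all 3 mutants were below WT, and QKO was the lowest. Coverage on this scale was divided by library depth as well as multiplied by the yeast factor, so that it does not keep the total yield in full. Applying the factor to recovered reads, given below, leaves that division out. For total yield in naive cells, the study found significantly less LAP2B DNA relative to yeast DNA in TKO and QKO, and not in LBRKO. In naive WT the mean over L1MdTf copies was 2.06, 3.06 and 2.35 units of deposited signal. LBRKO libraries had 1.33, 1.51 and 1.64. TKO libraries had 0.882, 1.37 and 1.03, and QKO libraries 0.409, 0.359 and 0.411, so that no mutant library reached the lowest WT library and LBRKO and TKO overlapped. LBRKO against TKO was 0.45 ± 0.234 (limma adjusted p = 0.0572) here and 0.29 ± 0.234 (limma adjusted p = 0.234) in EpiLCs, neither past the test and both opposite in sign to the relative scale. The naive value passed without LBRKO replicate 1 (0.53) or TKO replicate 2 (0.62), for the median copy (0.55) and with the spike-in factor applied to recovered reads (1.095), and the EpiLC value passed without TKO EpiLC replicate 1 (0.54) and with that factor (0.48). QKO against TKO was -1.35 ± 0.234 (limma adjusted p = 7.7e-07; 95.1% of families called lower). The group means were 0.601, 0.439 and 0.158 of WT. The log2 change was -0.70 ± 0.234 for LBRKO (limma adjusted p = 0.0348), -1.15 ± 0.234 for TKO (limma adjusted p = 1.74e-06) and -2.50 ± 0.234 for QKO (limma adjusted p = 2.25e-25), comparisons in which 9.23%, 99.6% and 99.8% of all families were called lower. The median family moved by -0.19, -1.02 and -1.75 in the same comparisons, so that most of the TKO and QKO values was common to TE families. The LBRKO call on this scale was lost without WT replicate 2 (-0.54), WT replicate 3 (-0.73), LBRKO replicate 1 (-0.62) or LBRKO replicate 2 (-0.71). It was also lost with the replicate number as a block (-0.70, adjusted p = 0.0658) and with the spike-in factor applied to recovered reads (-0.27, adjusted p = 0.251).

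The share of copies above the median TE copy separated all 4 genotypes. Among naive LBRKO libraries 33.4%, 33.3% and 28.5% of the L1MdTf copies were above the median TE copy in LAP2B over IGG, against 69.3% to 73.1% in WT. In naive QKO the shares were 25.3%, 19.0% and 26.3%, the lowest of the 4 genotypes. TKO was between them with 58.8%, 52.3% and 58.0%. No genotype's libraries overlapped another's (two-sided exact permutation test on F, p = 6.49e-05, the smallest it can give). Over the 5486 L1MdTf copies with most IGG signal the group means were 76.1%, 25.8%, 60.05% and 16.7% for WT, LBRKO, TKO and QKO. L1MdGf and L1MdA moved alike, with 32.8% and 34.5% for LBRKO, 52.2% and 52.5% for TKO, and 25.9% and 27.4% for QKO.

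**Figure D2:**
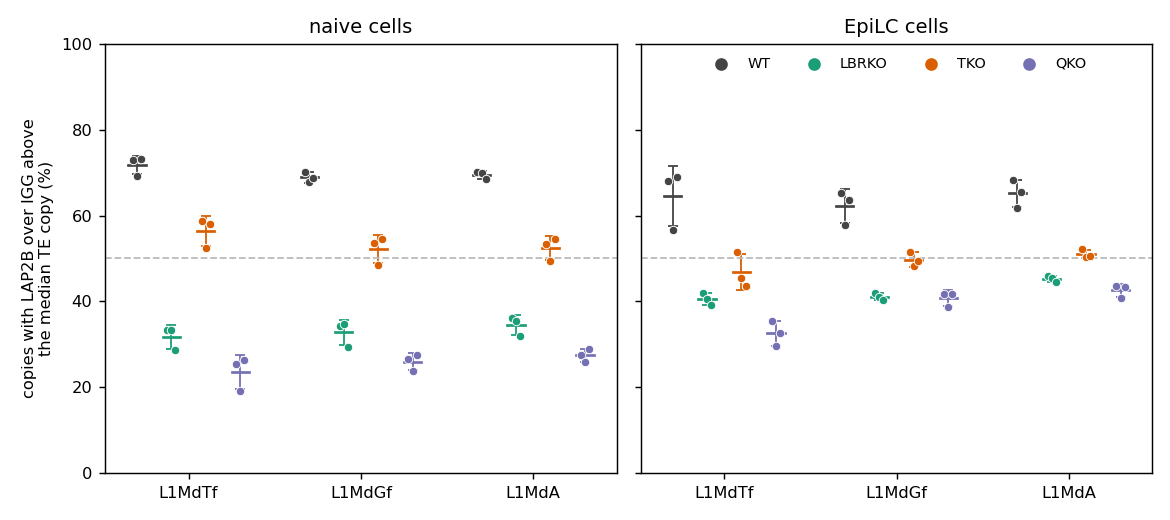
Share of L1MdTf, L1MdGf and L1MdA copies whose LAP2B to IGG ratio is above that of the median TE copy of the same library (vertical axis, percent), in naive cells (left) and EpiLCs (right). Points are libraries, lines means, bars the SD of 3 libraries, and the dashed line marks 50%; in naive cells WT lies above it and LBRKO and QKO below it in all 3 groups of copies.

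In EpiLCs LAP2B on L1MdTf was again lower than in WT in LBRKO and QKO, and TKO was called lower as well. WT libraries had relative levels of 3.81, 3.40 and 4.02, and LBRKO libraries 2.95, 2.88 and 2.91. TKO libraries had 3.41, 3.18 and 3.13, and QKO libraries 2.91, 2.76 and 2.82. The LBRKO and QKO libraries lay below every WT library, and the highest TKO library overlapped the lowest WT library. IGG in WT EpiLCs gave 3.49, 3.43 and 3.08, so that WT and TKO overlapped IGG and the LBRKO and QKO libraries lay below it. Log2 changes from WT were -0.35 for LBRKO (limma adjusted p = 1.27e-05), -0.20 for TKO (limma adjusted p = 0.00345) and -0.39 for QKO (limma adjusted p = 3.15e-06), each ± 0.0483 (SE). The TKO call was lost for the median copy in place of the mean (-0.10, adjusted p = 0.436). QKO against TKO was -0.19 and did not pass (limma adjusted p = 0.141), except with the median gene as yardstick (-0.26, adjusted p = 0.0121). Its spike-in scaled value was -0.85 ± 0.234 (limma adjusted p = 0.00632; 99.8% of families called lower), a call lost without TKO replicate 1 (-0.60). LBRKO against TKO was -0.15 (limma adjusted p = 0.0337), with 17.2% of families called lower, a call lost without LBRKO replicate 1 (-0.15), 2 (-0.14) or 3 (-0.15) or TKO replicate 1 (-0.11) or 2 (-0.16). It was also lost for the median copy (-0.11) and with the mean over TE copies (-0.10) or the median gene (-0.0045) as yardstick. The share of L1MdTf copies above the median TE copy was 64.6% ± 6.91 for WT and 40.5% ± 1.48 for LBRKO, 46.8% ± 4.19 for TKO and 32.6% ± 2.96 for QKO (SD of 3 libraries, exact permutation p = 6.49e-05). Spike-in scaled means were 2.45, 1.84, 1.54 and 0.806 for WT, LBRKO, TKO and QKO, with log2 changes of -0.37 for LBRKO (limma adjusted p = 0.999), -0.66 for TKO (limma adjusted p = 0.0439) and -1.51 for QKO (limma adjusted p = 3.89e-09), where 15.6% of families were called lower in TKO and 99.9% in QKO. The TKO call on this scale was lost without WT replicate 1 (-0.54), WT replicate 3 (-0.54), TKO replicate 2 (-0.60) or TKO replicate 3 (-0.47), with the replicate number as a block (-0.66), for the median copy (-0.55), with the spike-in factor applied to recovered reads (-0.43) and in edgeR on those reads (-0.67). The LBRKO value turned to 0.05 with that factor.

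The step from naive cells to EpiLCs raised the relative level of L1MdTf past the test in LBRKO and QKO. On the relative scale the pooled level was higher in EpiLCs than in naive cells by 0.27 ± 0.0483 in LBRKO (limma adjusted p = 0.000915) and by 0.34 ± 0.0483 in QKO (limma adjusted p = 7.96e-06), with 15.1% and 29.2% of all families called higher. Neither call held for the median copy in place of the mean (0.07 and 0.14). In WT the difference was 0.10 (limma adjusted p = 0.148) and in TKO -0.06 (limma adjusted p = 0.297). WT LMNB1 gave 0.14 (limma adjusted p = 0.398) and WT IGG 0.08 (limma adjusted p = 0.568), which turned to -0.07 and -0.04 with the median gene as yardstick, as LMNB1 did to -0.06 for the median copy. The smaller loss of QKO in EpiLCs was tested as an interaction and was 0.25 ± 0.0683 on the relative scale (limma adjusted p = 0.00548) and 0.99 ± 0.331 on the spike-in scale (limma adjusted p = 0.0192), against 24.5% and 60.2% of families called higher. The spike-in call was lost without WT naive replicate 2 (0.83), QKO naive replicate 2 (0.93), WT EpiLC replicate 2 (0.74) or QKO EpiLC replicate 1 (0.94), and with a pseudocount of 1 times the median family (0.57, adjusted p = 0.150). The interaction was 0.18 (limma adjusted p = 0.0623) for LBRKO and -0.16 (limma adjusted p = 0.107) for TKO on the relative scale. It passed for LBRKO (14.1% of families called higher) without WT naive replicate 2 (0.21) or WT EpiLC replicate 3 (0.23), and for TKO without WT EpiLC replicate 2 (-0.22). The LBRKO value also passed with the replicate number as a block (0.18, adjusted p = 0.0418), in edgeR on recovered reads (0.18, adjusted p = 0.0439) and with the mean over TE copies (0.24, adjusted p = 0.00693) or the median gene (0.48, adjusted p = 9.06e-05) as yardstick. The TKO value turned to 0.15 (adjusted p = 0.0597) with the median gene and to 0.02 (adjusted p = 0.952) for the median copy. In the main model neither the LBRKO nor the TKO interaction was called on the spike-in scale. Leaving out each library there gave 0.0863 to 0.457 for LBRKO and 0.241 to 0.683 for TKO, the TKO values opposite in sign to the relative scale. Spike-in scaled QKO levels were higher in EpiLCs by 0.95 ± 0.234 (limma adjusted p = 0.00206; 81.9% of families called higher), a call lost with a pseudocount of 1 times the median family (0.54, adjusted p = 0.145), whereas WT, LBRKO and TKO differed by -0.04 (adjusted p = 0.961), 0.29 (adjusted p = 1) and 0.45 (adjusted p = 0.0838). The TKO difference passed without TKO naive replicate 2 (0.62) or TKO EpiLC replicate 3 (0.64), for the median copy (0.47) and with the spike-in factor applied to recovered reads (0.93, adjusted p = 1.98e-07), and the WT difference on this scale was 0.11 without WT naive replicate 2 and 0.20 without WT EpiLC replicate 2. Spike-in scaled WT IGG was itself higher in EpiLCs by 0.96 ± 0.604 (limma adjusted p = 0.170), which did not pass. Its means were 0.369 in naive cells and 0.800 in EpiLCs, beside 0.393 and 0.806 for QKO LAP2B. Antibodies may have been scaled separately, so these levels were not tested against one another. On the relative scale the WT LAP2B difference was 0.16 and passed without WT EpiLC replicate 2. It turned to -0.21 (adjusted p = 0.000579) with the median gene as yardstick and to -0.13 (adjusted p = 0.252) for the median copy in place of the mean.

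The 3 subfamilies all fell in LBRKO and QKO on the relative scale and stood apart in TKO. Spike-in scaled means of L1MdTf_I, L1MdTf_II and L1MdTf_III in naive TKO were 0.473, 0.464 and 0.397 of WT. In naive LBRKO these spike-in shares were 0.612, 0.625 and 0.575. In naive LBRKO the relative-scale changes were -0.50 for L1MdTf_I, -0.47 for L1MdTf_II and -0.58 for L1MdTf_III, and in naive QKO they were -0.57, -0.56 and -0.74, all called by limma (41.8% and 42.6% of all 1202 families were called lower in these comparisons). In naive TKO only L1MdTf_III passed, with -0.18 ± 0.0438 (limma adjusted p = 0.00193; 20.8% of families called lower), while L1MdTf_I stood at 0.06 and L1MdTf_II at 0.04, values that became negative with the median gene (-0.45 and -0.47) or the mean over TE copies (-0.05 and -0.08) as yardstick. Without WT replicate 2 the L1MdTf_II value was -0.0036. For the median copy in place of the mean L1MdTf_III was at -0.16 and no longer passed (adjusted p = 0.0722), and L1MdTf_I and L1MdTf_II were at -0.08 and -0.10. In EpiLCs, L1MdTf_I, L1MdTf_II and L1MdTf_III were at -0.34, -0.32 and -0.37 in LBRKO and at -0.34, -0.33 and -0.47 in QKO, all called lower (29.3% and 27% of families). In TKO EpiLCs L1MdTf_III, at -0.30, and L1MdTf_II, at -0.14, were called lower and L1MdTf_I, at -0.13, was not (adjusted p = 0.0878; 18.6% of families called lower). The L1MdTf_II call was lost without WT replicate 1 (-0.14) or 3 (-0.08) or TKO replicate 2 (-0.13) or 3 (-0.11), and L1MdTf_I passed without WT replicate 2 (-0.20) or TKO replicate 1 (-0.17) and with the mean over TE copies (-0.17) or the median gene (-0.33) as yardstick. For the median copy the EpiLC calls of L1MdTf_III (-0.15, adjusted p = 0.211) and L1MdTf_II (-0.08, adjusted p = 0.631) in TKO and of L1MdTf_II in QKO (-0.16, adjusted p = 0.0939) were lost. Among all families, L1MdTf_III had the 12th lowest change in naive QKO and the 2nd lowest in QKO EpiLCs.

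Ratios between subfamilies within a library need no scale, and those to L1MdTf_III were higher in TKO and QKO than in WT at both stages. The log2 ratio of L1MdTf_I to L1MdTf_III was 0.22 ± 0.0414 (SD, n = 3) in naive WT. LBRKO had 0.31 ± 0.0221, TKO 0.48 ± 0.0228 and QKO 0.40 ± 0.0734. The genotypes differed (exact permutation test on F, p = 0.000195, adjusted over 12 such tests p = 0.00234), and every mutant library was above every WT library. IGG in naive WT gave 0.26 ± 0.0214 and LMNB1 0.18 ± 0.0498, so that TKO and QKO lay above the background ratio and WT below it on average. L1MdTf_II to L1MdTf_III went the same way, from -0.06 ± 0.0262 in WT to 0.05 ± 0.0312, 0.16 ± 0.0244 and 0.13 ± 0.0558 in LBRKO, TKO and QKO (exact permutation p = 0.00117, adjusted p = 0.00343). In EpiLCs the ratio of L1MdTf_I to L1MdTf_III was 0.22, 0.26, 0.40 and 0.36 for WT, LBRKO, TKO and QKO (exact permutation p = 0.00143, adjusted p = 0.00343), with LBRKO overlapping WT, and IGG gave 0.36. For the median copy this EpiLC difference did not pass (exact permutation p = 0.0754). L1MdTf_I to L1MdTf_II differed less, with 0.29, 0.26, 0.31 and 0.28 in naive WT, LBRKO, TKO and QKO (exact permutation p = 0.00591, adjusted p = 0.00984, and 0.0529 for the median copy), where LBRKO lay below WT, TKO above it and QKO overlapped it. Pairwise, 3 libraries against 3 allow no p under 0.1.

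**Figure D3:**
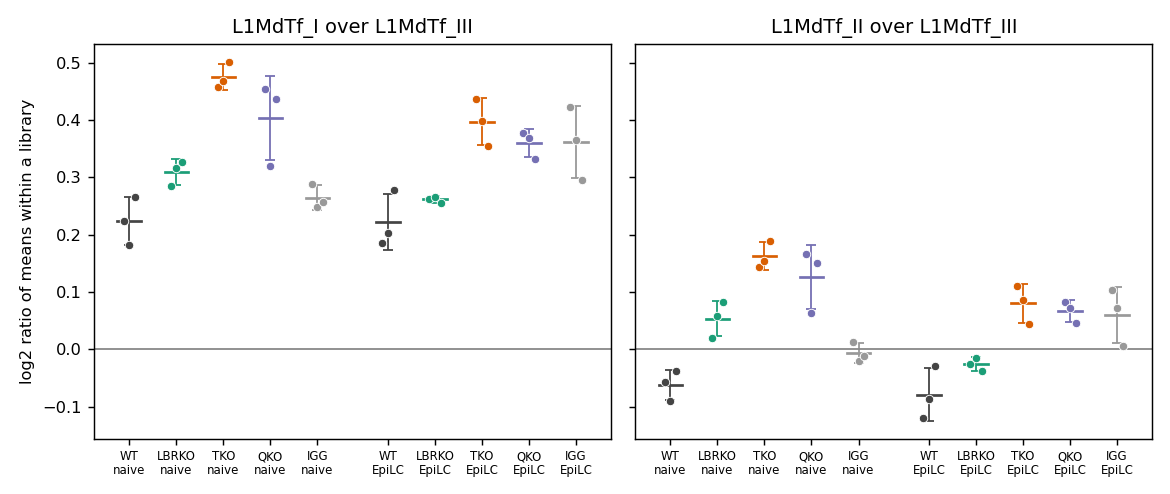
Log2 ratio of mean LAP2B signal between L1MdTf subfamilies within each library (vertical axis), L1MdTf_I over L1MdTf_III (left) and L1MdTf_II over L1MdTf_III (right), with IGG in grey. Points are libraries, lines means and bars the SD of 3 libraries; the TKO and QKO libraries lie above the WT libraries at both stages.

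The wider L1Md list, the 22 other families whose names start with L1Md, moved in the same direction as L1MdTf in most comparisons. All 22 were called lower in naive LBRKO and in naive QKO on the relative scale, with medians of -0.54 and -0.62, against 41.8% and 42.6% of all families called lower and medians of -0.03 and -0.02. In naive TKO 19 were called lower, against 20.8% of all families, and 1 higher (median -0.17, all families 0.02). The family that rose on this scale was L1MdA_I, a young A family, at 0.28 ± 0.0618 (limma adjusted p = 0.000908, with 33.5% of all families called higher). L1MdA_II (0.02) and L1MdGf_I (0.01) did not pass. L1MdA_III fell to -0.16 and L1MdGf_II to -0.15. In naive QKO L1MdA_I fell less than the L1MdTf subfamilies, by 0.27, while L1MdA_II, L1MdA_III, L1MdGf_I and L1MdGf_II were at -0.56, -0.68, -0.53 and -0.64. In EpiLCs 22 of the 22 were called lower for LBRKO, 20 for TKO and 22 for QKO, with medians of -0.30, -0.18 and -0.26, against 29.3%, 18.6% and 27% of all families called lower and medians of -0.02, -0.01 and -0.01 over all families. With the median gene as yardstick, under which the median family itself stood at -0.46, L1MdA_I was called lower in naive TKO and not higher. On the spike-in scale all 22 families, L1MdA_I included, were called lower in naive TKO, against 99.6% of all families. From spike-in scaled values the study reports derepressed L1MdA_I copies as displaced from the periphery in TKO.

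**Figure D4:**
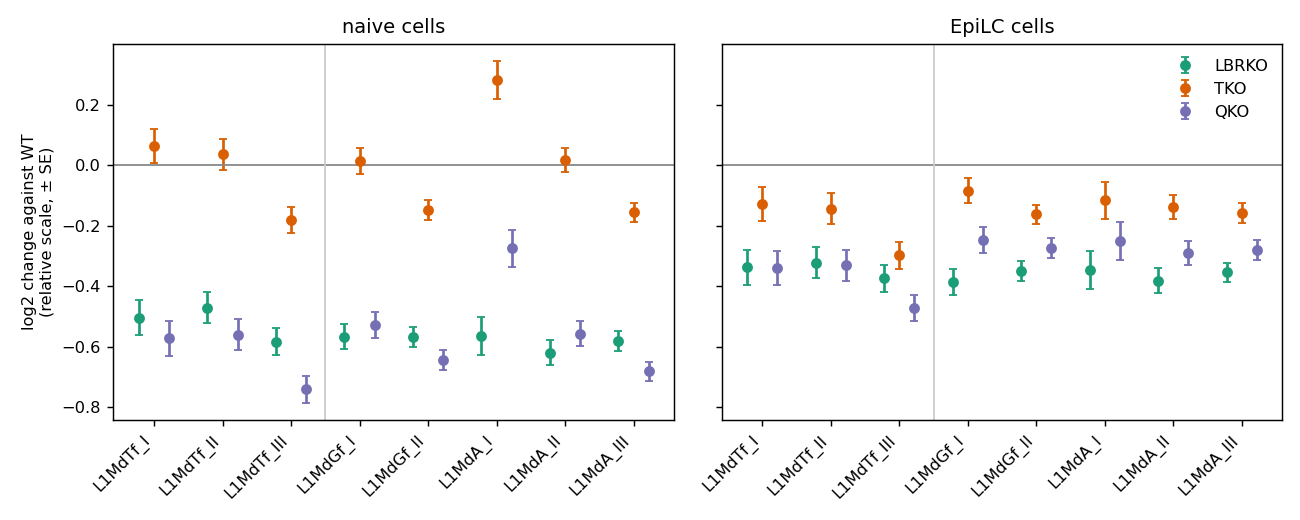
Log2 change of LAP2B against WT on the relative scale (vertical axis, bars show the SE) for the 3 L1MdTf subfamilies, left of the grey line, and for L1MdGf and L1MdA families, in naive cells and EpiLCs. LBRKO and QKO lie below 0 for every family shown, and naive TKO lies on both sides of 0.

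Set against its relatives within a library, L1MdTf moved little. The log2 ratio of L1MdTf to L1MdGf was 0.54 ± 0.0318 for naive WT and 0.59 ± 0.0106, 0.59 ± 0.00524 and 0.52 ± 0.0333 for LBRKO, TKO and QKO (SD of 3 libraries, exact permutation p = 0.0120, adjusted p = 0.0144). In EpiLCs it was 0.66, 0.68, 0.60 and 0.54 in the same order (exact permutation p = 0.00877, adjusted p = 0.0117), and the QKO libraries lay below WT. The ratio to L1MdA was 0.63, 0.68, 0.66 and 0.57 in naive cells (exact permutation p = 0.0214) and 0.78, 0.77, 0.74 and 0.66 in EpiLCs (exact permutation p = 0.0185, and 0.0692 or 0.0668 without QKO replicate 2 or 3). IGG gave 0.50 and 0.62 for L1MdGf and 0.65 and 0.81 for L1MdA in naive cells and EpiLCs. None of these differences between genotypes held for the median copy in place of the mean.

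Single copies were tested in 1 model over 3414046 TE copies, which kept 10607 L1MdTf copies and left out 365 with low signal. On the relative scale 2484 L1MdTf copies (23.4%) were called lower and 127 higher in naive LBRKO, where 8.1% of all copies were called lower and 14.3% higher. In naive QKO 4488 (42.3%) were lower and 197 higher, against 18.2% and 25% of all copies. In naive TKO 158 (1.49%) were lower and 91 higher, against 1.82% and 7.7%. Over all copies more were called higher than lower in LBRKO and QKO, and over L1MdTf the reverse. L1MdGf had 22.7% and 38.9% of its tested copies called lower in LBRKO and QKO, and L1MdA 23.1% and 39.5%. Copies with more reads are easier to call, and the part of read depth in these shares was not tested. In EpiLCs 411 L1MdTf copies (3.87%) were lower and 12 (0.113%) higher in QKO, against 0.514% and 1.57% of all copies. In LBRKO EpiLCs 161 (1.52%) were lower and 25 (0.236%) higher, against 0.639% and 1.56%. In TKO EpiLCs 18 (0.170%) were lower and 4 (0.0377%) higher, against 0.0336% and 0.0503%. Of the 411 copies lower in QKO EpiLCs, 362 (88.1%) were also lower in naive QKO, which is 8.07% of the 4488. Over all TE copies the same overlap was 72.6% of those lower in QKO EpiLCs and 2.05% of those lower in naive QKO, and the difference was not tested. The naive QKO call was itself more frequent in L1MdTf (42.3%) than over all copies (18.2%), so that the overlaps have different starting points. These counts depend on single libraries. The naive LBRKO count, 2611 in either direction, was 1710, 1633 and 1606 without WT replicate 1, 2 or 3 and 1426 without LBRKO replicate 3. The QKO EpiLC count, 423 in either direction, was 131 and 147 without WT replicate 1 or 3 and 139, 130 and 204 without QKO replicate 1, 2 or 3. The naive TKO count, 249, was 104 and 160 without WT replicate 2 or 3 and 148 without TKO replicate 2. Without WT replicate 3 its balance turned, with 74 copies lower and 86 higher, and without WT replicate 1 it was even, with 89 each way. The LBRKO EpiLC count, 186, was 40 and 36 without WT replicate 1 or 3 and 60, 48 and 77 without LBRKO replicate 1, 2 or 3. The TKO EpiLC count, 22, was 7, 55 and 8 without WT replicate 1, 2 or 3 and 13 and 10 without TKO replicate 1 or 2, and without WT replicate 1 it held 3 lower and 4 higher.

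The share of copies called lower was highest in L1MdTf_III, a difference between subfamilies that was not tested. In naive LBRKO 580 of 2548 tested L1MdTf_I copies (22.8%), 699 of 3637 L1MdTf_II copies (19.2%) and 1205 of 4422 L1MdTf_III copies (27.3%) were called lower, against 8.1% of all copies. In naive QKO the counts were 1024 (40.2%), 1333 (36.7%) and 2131 (48.2%), against 18.2%. The naive LBRKO counts in either direction, 590, 764 and 1257 for L1MdTf_I, L1MdTf_II and L1MdTf_III, were 318, 417 and 691 without LBRKO replicate 3, 372, 457 and 804 without WT replicate 2, and 339, 433 and 834 without WT replicate 3. Without WT replicate 1 those of L1MdTf_I and L1MdTf_II were 367 and 491. The median change per copy in naive QKO was -0.62 for L1MdTf_I, -0.63 for L1MdTf_II and -0.77 for L1MdTf_III.

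On the spike-in scale 2454 L1MdTf copies (23.1%) were lower in naive LBRKO, 7790 (73.4%) in naive TKO and 10321 (97.3%) in naive QKO, against 10.7%, 41% and 68.6% of all copies. For LBRKO, TKO and QKO EpiLCs the counts were 28 (0.264%), 229 (2.16%) and 8562 (80.7%), against 0.37%, 1.06% and 40.3% of all copies. Copies called higher numbered 78 (0.735%), 8 (0.0754%) and 16 (0.151%) in naive LBRKO, TKO and QKO, against 9.38%, 0.792% and 2.88% of all copies. In EpiLCs they numbered 9 (0.0848%), 4 (0.0377%) and 5 (0.0471%), against 0.849%, 0.0282% and 0.081%. The naive LBRKO count in either direction, 2532, was 593 without WT replicate 2 and 1257, 1333 and 1633 without LBRKO replicate 1, 2 or 3, and the naive TKO count, 7798, was 4585 without WT replicate 2 and 4923 without TKO replicate 1. The LBRKO EpiLC count, 37, was 17, 88 and 11 without WT replicate 1, 2 or 3 and 9, 11 and 15 without LBRKO replicate 1, 2 or 3, and its balance turned without WT replicate 1 (7 lower, 10 higher) or WT replicate 3 (5 lower, 6 higher). The TKO EpiLC count, 233, was 5, 1296 and 9 without WT replicate 1, 2 or 3 and 1136, 75 and 41 without TKO replicate 1, 2 or 3, and the 5 without WT replicate 1 were 2 lower and 3 higher.

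How the loss was spread over copies was examined with LMNB1 of WT cells, measured in libraries of its own. Classes by LMNB1 alone, given in the next paragraph, were the main measure, and there naive TKO overlapped WT. Classes by LMNB1 over IGG, given first, are an alternative whose p-values are not adjusted. Copies were ranked by WT LMNB1 over IGG and parted into 4 equal classes of 2743 by that ratio, which is not an order of signal: the naive WT LAP2B level was 2.45, 4.23, 4.51 and 2.76 times the median family from the class of lowest to that of highest ratio. In naive QKO the relative LAP2B level was 0.743 of WT in the class with the lowest ratio and 0.641, 0.613 and 0.560 of WT in the next classes. In LBRKO these shares were 0.729, 0.688, 0.674 and 0.665, and in TKO 1.02, 0.999, 0.969 and 0.891. In each mutant the share was lowest in the class with the highest LMNB1 to IGG ratio, and the same order was seen in EpiLCs, where QKO went from 0.859 to 0.686. Classes by IGG alone also parted the copies: from the lowest to the highest IGG class the naive share went from 0.729 to 0.681 in LBRKO, from 0.694 to 0.620 in QKO and, the other way, from 0.907 to 1.00 in TKO. The log2 ratio of LAP2B in the highest class to the lowest was 0.17 ± 0.0570 (SD, n = 3) for naive WT and 0.04 ± 0.0552, -0.02 ± 0.0473 and -0.23 ± 0.0226 for LBRKO, TKO and QKO, and every mutant library was below every WT library (exact permutation p = 0.000195). In EpiLCs it was 0.35, 0.27, 0.10 and 0.03 (exact permutation p = 6.49e-05). Because the same IGG libraries enter the ranking, the IGG ratio between these classes was -0.49 ± 0.224 in naive cells. Ranking by LMNB1 over IGG of the other stage, which was added after the values were seen, gave 0.36, 0.17, 0.16 and -0.07 in naive cells (exact permutation p = 0.000584), with IGG at 0.12. In EpiLCs it gave 0.05, 0.02, -0.14 and -0.17 (exact permutation p = 0.000390), with IGG at -0.17, and there the LBRKO libraries overlapped WT and the difference of QKO from WT was -0.22.

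With classes by LMNB1 alone, the ratio was 3.10 ± 0.0373 for naive WT and 2.89 ± 0.0136, 3.11 ± 0.0215 and 2.62 ± 0.0389 for LBRKO, TKO and QKO (SD of 3 libraries, exact permutation p = 0.000519, adjusted p = 0.00312). IGG gave 2.89 ± 0.0135 and LMNB1 itself 3.15 ± 0.0800, and LBRKO stood at the IGG value and QKO below it. In EpiLCs the ratio was 3.30, 3.17, 3.12 and 2.94 (exact permutation p = 0.00312, adjusted p = 0.00623), with IGG at 3.16. The LBRKO and TKO libraries overlapped WT there, and for the median copy of each class the difference did not pass (exact permutation p = 0.105). The naive TKO difference from WT, 0.0057, turned to -0.016 when WT replicate 2 was left out, to -0.0049 when TKO replicate 3 was, and to -0.19 with classes by LMNB1 over IGG. Across the 10972 copies, Spearman's rho between LAP2B and WT LMNB1 was 0.918 to 0.931 in naive WT and 0.811 to 0.844 in naive QKO, and with IGG 0.882 to 0.909 and 0.839 to 0.873. The copies share length as a common factor in all of these, and the values are descriptions.

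**Figure D5:**
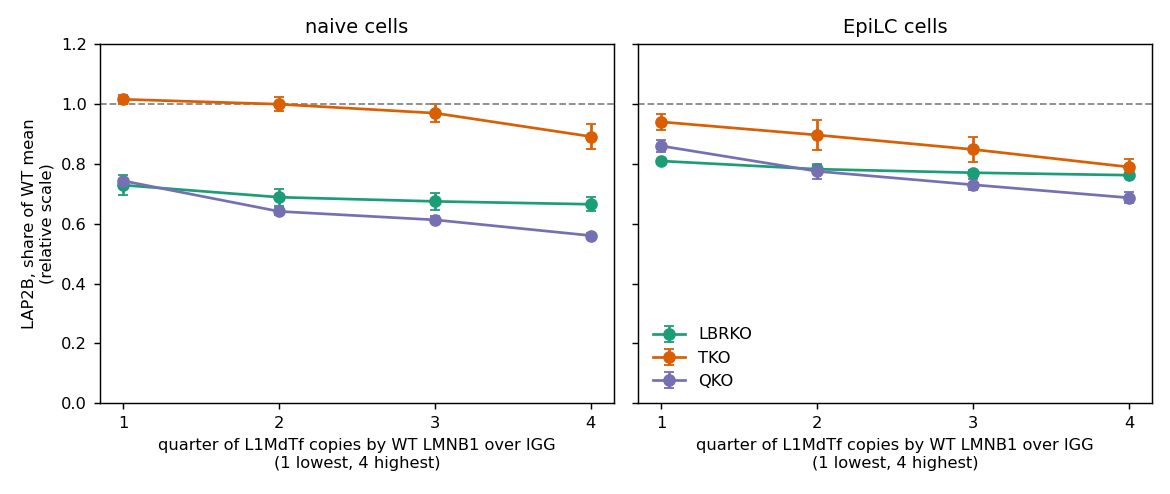
LAP2B on L1MdTf copies as a share of the WT mean (vertical axis, relative scale) in 4 equal classes of 2743 copies ranked by WT LMNB1 over IGG (horizontal axis), for LBRKO, TKO and QKO in naive cells and EpiLCs. Points are means of 3 libraries and bars the SD; in naive QKO the share falls from 0.743 in the lowest class to 0.560 in the highest.

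A few copies moved against the group. The largest rises in naive TKO, naive QKO and QKO EpiLCs were in the same 3 copies, whose positions are not given in the tables. L1MdTf_I_dup1665 had relative LAP2B levels of 1.15, 1.11 and 0.778 in naive WT and 70.3, 51.4 and 59.1 in naive QKO. Its level in naive TKO was 15.5, 9.88 and 13.5, and in naive LBRKO 0.491, 0.629 and 0.820, so that TKO and QKO were above WT and LBRKO overlapped WT. In recovered reads it had 12 to 25 in naive WT and 758 to 1183 in naive QKO. L1MdTf_III_dup2930 went from a mean of 0.378 in naive WT to 6.30 in TKO and 22.6 in QKO, and L1MdTf_III_dup2929 from 0.315 to 3.97 and 20.0. The log2 changes in naive QKO were 5.79, 6.08 and 5.65 for the 3 copies (limma adjusted p = 2.13e-21, 2.15e-14 and 8.38e-14) and 4.50, 4.98 and 4.47 in QKO EpiLCs (limma adjusted p = 8.07e-16, 1.72e-10 and 1.9e-09). Mean IGG levels of L1MdTf_I_dup1665, L1MdTf_III_dup2930 and L1MdTf_III_dup2929 in naive WT were 2.31, 0.6125 and 0.291. IGG was not mapped in the mutants, and the part of DNA copy number in these rises was not tested. L1MdTf_III_dup2929 and L1MdTf_III_dup2930 have consecutive numbers. Copies can share bins and reads, and whether these copies lie side by side was not tested.

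Among the copies that fell most, several were close to 0 in cells without lamins. L1MdTf_III_dup2035 had 20, 17 and 16 reads in naive WT and 0, 2 and 0 in naive QKO, with 0, 0 and 3 in naive TKO, and its relative level in naive LBRKO was 0.546 of WT. L1MdTf_III_dup1417 fell from relative levels of 1.56, 1.70 and 2.07 in naive WT to 0.238, 0.0488 and 0.156 in QKO and to 0.348, 0.225 and 0.134 in TKO. The other 2 in these comparisons were L1MdTf_III_dup1418 in naive TKO (-2.95) and L1MdTf_II_dup1980 in naive QKO (-2.99). In QKO EpiLCs the largest falls were in L1MdTf_III_dup2250 (-3.37), L1MdTf_III_dup2035 (-2.91) and L1MdTf_III_dup1419 (-2.27). In naive LBRKO the copies L1MdTf_I_dup1009, L1MdTf_II_dup1737 and L1MdTf_II_dup3524 fell most, by 2.97, 2.81 and 2.67, and L1MdTf_III_dup1190, L1MdTf_III_dup3255 and L1MdTf_III_dup1665 rose most, by 2.48, 2.16 and 2.12. The L1MdTf_III_dup1417 and L1MdTf_III_dup1418 copies were also low in naive LBRKO, at 0.368 and 0.217 of WT. Values of these copies rest on few reads, from 15 to 38 in naive WT for those that fell in naive cells. Of those that rose in naive LBRKO, L1MdTf_III_dup1190 had 21, 4 and 2 reads in naive WT. L1MdTf_III_dup3255 had 16, 4 and 0, and L1MdTf_III_dup1665 had 10, 0 and 7. Their naive WT IGG levels, 1.16, 1.29 and 1.49, were above their mean WT LAP2B levels of 0.4523, 0.3325 and 0.3045. Mean LAP2B levels in LBRKO were 2.36, 1.225 and 1.36. L1MdTf_III_dup1417, L1MdTf_III_dup1418 and L1MdTf_III_dup1419 have consecutive numbers, and whether they share reads was not tested. Calls were lost for L1MdTf_III_dup3255 without WT replicate 3 (1.28) and L1MdTf_III_dup1665 without WT replicate 2 (1.24). In QKO EpiLCs they were lost for L1MdTf_III_dup2035 without any WT library or QKO replicate 1 or 2 (-2.99 to -2.43), and for L1MdTf_III_dup1419 without WT replicate 1 or QKO replicate 1 or 2 (-2.22 to -1.78).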

How the data were processed

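The TE tables hold 36 CUT&RUN libraries, 24 for LAP2B, 6 for LMNB1 and 6 for IGG, and 2 H3K9me3 samples are not used here. From the study's methods and the submitters' processing notes, the authors aligned read pairs to mm39 with Bowtie2 2.3.5.1, kept properly paired primary alignments with SAMtools 1.10, removed duplicates, and made deepTools RPKM coverage multiplied by a yeast spike-in factor. The methods name bins of 10 kb for TEs. A single read was worth 0.881 to 0.941 times as much in the TE table as in the gene table of a library, and a wider bin would lower this worth in proportion. The deposited signal of a TE copy is therefore read as a sum over bins as wide as those of genes, taken to be 1 kb, which was not tested against coordinates. Blacklisted regions were kept. The deposited modified z score per copy was used for naive WT LAP2B.

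Every library's values were whole multiples of 1 step for at least 99.9997% of copies (within 0.05 of a step), so whole reads were recovered. These sums, 37407387 to 131279154 over TE copies, count a read once per copy whose bins it touches. They order the libraries by depth and limit the precision of single copies. Tables of the 3 antibodies may have been scaled separately, so no test crosses them. Families with at least 10 copies (1202), with the pooled L1MdTf copies as 1 added row, were tested on log2(mean + 0.1 of the median family). Copies were tested on log2(value + 0.1 of the median copy), leaving out the lowest 0.1 of copies. Changes on this scale understate those of low copies. Tests used limma 3.58.1 in R 4.3.3 (1 model of 8 group means, eBayes with trend, adjusted p under 0.05), checked on simulated data. Values with 1 number per library used two-sided exact permutation tests, adjusted over the 3 mutants or over the 12 measures and stages.

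Named copies are the 3 called copies with the largest fall and the 3 with the largest rise whose mutant and WT libraries do not overlap, in naive LBRKO, TKO and QKO and in QKO EpiLCs. Alternatives are described in the closing section and include edgeR 4.0.16 on recovered reads. The members, lists and tests were chosen with earlier results of these data known. No sequence is printed, because the tables used here give no coordinates of copies.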

Additional observations from a re-analysis of the deposited data

Results flagged for a closer look

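The effect of QKO on L1MdTf differed between the stages, by the interaction test in the model of all families (limma, Benjamini-Hochberg adjusted). On the spike-in scale the loss was smaller in EpiLCs by 0.99 for the pooled copies (adjusted p = 0.0192), by 0.99 for L1MdTf_I (adjusted p = 0.0206), 0.97 for L1MdTf_II (adjusted p = 0.0200) and 1.01 for L1MdTf_III (adjusted p = 0.0175). On the relative scale it was smaller by 0.25 for the pooled copies (adjusted p = 0.00548), 0.23 for L1MdTf_I (adjusted p = 0.0204), 0.23 for L1MdTf_II (adjusted p = 0.0119) and 0.27 for L1MdTf_III (adjusted p = 0.00137). In LBRKO the relative-scale loss of L1MdTf_III was smaller in EpiLCs by 0.21 (adjusted p = 0.0187). In that comparison 21 of the 22 other L1Md families and 14.1% of all families were called higher. The 22 other L1Md families gave 22 calls on the spike-in scale and 21 on the relative scale in the same direction for QKO, where 60.2% and 24.5% of all families were called. WT IGG was also higher in EpiLCs on the spike-in scale, by 0.96 (limma adjusted p = 0.170), a difference that did not pass. Without a single library, the relative-scale call of L1MdTf_I was lost for WT naive replicate 3 (0.19), WT EpiLC replicate 2 (0.16) and QKO EpiLC replicate 1 (0.21), and that of L1MdTf_III in LBRKO for LBRKO naive replicate 3 (0.17) and WT EpiLC replicate 2 (0.15). The spike-in calls of the subfamilies were lost without WT naive replicate 2 (0.82 to 0.84), WT EpiLC replicate 2 (0.73 to 0.76) or QKO EpiLC replicate 1 (0.92 to 0.96), and those of L1MdTf_I and L1MdTf_II without QKO naive replicate 2 (0.91). For the median copy in place of the mean, the relative-scale QKO calls were lost for L1MdTf_I (0.18, adjusted p = 0.243), L1MdTf_II (0.21, adjusted p = 0.133) and L1MdTf_III (0.26, adjusted p = 0.0594), as was that of L1MdTf_III in LBRKO (0.20, adjusted p = 0.304). With a pseudocount of 1 times the median family the spike-in calls of the pooled copies and the 3 subfamilies were lost (0.56 to 0.61, adjusted p = 0.150).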

How the results depend on the processing

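Of 401 values that answer a comparison under alternatives other than leaving out a library, 351 kept direction and side of the threshold, or stayed within 1.5 times, as did 432 of 504 with a library left out; the others changed. The cause of the changes that follow was not tested. On the relative scale, dividing by the median gene gave -0.551 for naive TKO, -0.00451 for LBRKO against TKO and -0.264 for QKO against TKO in EpiLCs, interactions of 0.476 for LBRKO and 0.154 for TKO, and stage differences of -0.213 for WT LAP2B, -0.0685 for LMNB1 and -0.0356 for IGG. For L1MdTf_I and L1MdTf_II in naive TKO it gave -0.449 and -0.474. Dividing by the mean over all TE copies gave -0.158 for naive TKO (-0.0550 and -0.0817 for L1MdTf_I and L1MdTf_II), -0.0973 for LBRKO against TKO in EpiLCs and 0.243 for the LBRKO interaction.

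Taking the median copy gave, on the relative scale, -0.101 for TKO and -0.109 for LBRKO against TKO in EpiLCs (both calls lost), 0.0221 for the TKO interaction, stage differences of -0.133 in WT, 0.0656 in LBRKO, 0.140 in QKO and -0.0572 for LMNB1, and -0.0819 and -0.0994 for L1MdTf_I and L1MdTf_II in naive TKO. On the spike-in scale it gave -0.547 for TKO in EpiLCs and 0.467 for the TKO stage difference. The exact permutation p over genotypes became 0.0604 (naive) and 0.166 (EpiLC) for L1MdTf over L1MdA, 0.383 and 0.357 for L1MdTf over L1MdGf, 0.0529 for L1MdTf_I over L1MdTf_II in naive cells, 0.0754 for L1MdTf_I over L1MdTf_III in EpiLCs and 0.105 for the LMNB1 class ratio in EpiLCs. Differences from WT that turned were, for L1MdTf over L1MdA, 0.0163, 0.0529 and 0.0498 in LBRKO, TKO and QKO EpiLCs and 0.102 in naive QKO, for L1MdTf over L1MdGf 0.0361 and 0.00656 in TKO and QKO EpiLCs and 0.0723 in naive QKO, and -0.0337 for L1MdTf_I over L1MdTf_II in TKO EpiLCs. With classes by LMNB1 over IGG the naive TKO difference in the class ratio was -0.191, and -0.194 with those of the other stage.

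Applying the spike-in factor to recovered reads gave, on the spike-in scale, -0.270 for naive LBRKO, 0.0499 and -0.428 for LBRKO and TKO in EpiLCs, 0.936 and 0.930 for the TKO interaction and stage difference, and 1.095 and 0.478 for naive and EpiLC LBRKO against TKO (0.553 in naive cells for the median copy). A pseudocount of 1 times the median family gave 0.574 for the QKO interaction and 0.542 for the QKO stage difference. edgeR gave -0.670 for TKO in EpiLCs (adjusted p = 0.0547) and 0.182 for the relative LBRKO interaction (adjusted p = 0.0439). Replicate numbers did not pair the libraries: 19 of 84 same-numbered pairs had correlated deviations over 0.1, and 9 of 24 libraries correlated best with their own number. With the replicate block, naive LBRKO (-0.701, adjusted p = 0.0658) and TKO in EpiLCs (-0.663, adjusted p = 0.0762) missed the threshold on the spike-in scale, and the relative LBRKO interaction (0.177, adjusted p = 0.0418) and the spike-in stage difference of LMNB1 (0.217, adjusted p = 0.00447) passed it.

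Copies called in either direction on the relative scale went from 186 to 291 in LBRKO EpiLCs and from 22 to 49 in TKO EpiLCs with a pseudocount of 1 times the median copy, and to 283 in LBRKO EpiLCs when the lowest 0.5 of copies were left out. On the spike-in scale they went from 37 to 201 and 63 in LBRKO EpiLCs under the same settings, and in TKO EpiLCs from 233 to 784 with that pseudocount and 155 with no filter.

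Leaving out each library in turn gave relative-scale ranges of -0.170 to -0.112 for LBRKO against TKO in EpiLCs, 0.112 to 0.229 for the LBRKO interaction, -0.225 to -0.108 for the TKO interaction and 0.0454 to 0.162 for the WT stage difference. On the spike-in scale they were -0.826 to -0.545 for naive LBRKO, -0.913 to -0.470 for TKO in EpiLCs, 0.744 to 1.115 for the QKO interaction, 0.241 to 0.683 for the TKO interaction, 0.316 to 0.619 and 0.101 to 0.543 for naive and EpiLC LBRKO against TKO, -1.04 to -0.597 for QKO against TKO in EpiLCs, 0.199 to 0.641 for the TKO stage difference and -0.167 to 0.204 for that of WT. Copy counts ranged over 1426 to 1941 (naive LBRKO), 104 to 292 (naive TKO), 36 to 163 (LBRKO EpiLCs), 7 to 55 (TKO EpiLCs) and 130 to 450 (QKO EpiLCs) on the relative scale, and over 593 to 2523, 4585 to 8256, 9 to 88 and 5 to 1296 for naive LBRKO, naive TKO, LBRKO EpiLCs and TKO EpiLCs on the spike-in scale. The p for L1MdTf over L1MdA in EpiLCs ranged from 0.00591 to 0.0692. Differences from WT that changed sign ranged from -0.0383 to 0.0274 for L1MdTf over L1MdA in LBRKO EpiLCs, -0.00395 to 0.0491 for it in naive TKO, -0.00552 to 0.0526 for L1MdTf over L1MdGf in LBRKO EpiLCs, -0.0158 to 0.00110 for L1MdTf_I over L1MdTf_II in naive QKO, -0.00361 to 0.0713 for L1MdTf_II in naive TKO and -0.0158 to 0.0171 for the class ratio in naive TKO. Single copies rest on a median of 18 to 48 reads per LAP2B library, which limits the calls on copies more than those on families.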
